A study of Mus musculus with 8 samples.

Results

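The genes described are 10 mouse interferon genes among 53715 genes in a table of RNA levels. They are Ifnb1 (interferon beta), 7 interferon alpha genes (Ifna1, Ifna2, Ifna4, Ifna5, Ifna6, Ifna11 and Ifna13) and the interferon lambda genes Ifnl2 and Ifnl3. The choice was by name, with earlier results of these data known. All 10 had a row in the table. Poly(A) RNA came from macrophages labelled Sting-/-, in which the endogenous gene for STING is disrupted, grouped by the transgene they carried. The no_transgene group carried none (its titles name a retroviral vector), the mSTING group mouse STING, the dCTT group mSTING-dCTT and the zfCTT group mSTING-zfCTT. CTT stands for the protein's C-terminal tail; in the study this series belongs to, dCTT lacks the tail and zfCTT has that of zebrafish STING. Each group had 2 libraries, and every cell had been given 500 µg/ml CMA for 4 h. CMA (carboxymethyl acridanone) is a drug-like compound known as a ligand of the mouse protein. All values are therefore from stimulated cells, and all differences are between transgenes under CMA. Age and sex of the source animals, the number of clones and the promoter driving the transgene are not stated in the labels.

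Interferons are secreted antiviral proteins. STING senses cyclic dinucleotides made when DNA appears in the cytosol, and its tail recruits the kinase TBK1, which phosphorylates the transcription factor IRF3. IRF3 and NF-κB bind the enhancer of Ifnb1; interferon beta then acts through the receptor IFNAR on the same and neighbouring cells, where a complex holding STAT2 and IRF9 switches on interferon-stimulated genes. One of these, Irf7, encodes the factor on which most Ifna genes depend, so Ifna transcripts usually follow interferon beta. Interferon lambda signals through another receptor, made of IFNLR1 and IL10RB, found mainly on epithelial cells.

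Ifnb1 and the 7 Ifna genes lie together on chromosome 4, over 329 kb of GRCm38, each as 1 exon without an intron. Ifnb1 (ENSMUSG00000048806) spans 88522025 to 88522774 on the minus strand. Ifna1, at 88850087 to 88850656 on the plus strand, is at the other end. Ifnl2 (28508836 to 28510455, minus strand) and Ifnl3 (28522836 to 28524322, plus strand) are neighbours on chromosome 7 with 5 exons each. No exon of the 10 genes overlaps an exon of another annotated gene. Sequence sharing, however, separates them. In the annotated transcripts, 0% of the 50-base stretches of Ifnb1 occur in another gene. The share was 67.4% for Ifna1, 55.9% for Ifna6, 52.2% for Ifna5, 28.2% for Ifna11, 15.3% for Ifna13, 12.2% for Ifna2 and 6.45% for Ifna4. Ifnl2 shared 31.7% of its stretches with Ifnl3, and Ifnl3 shared 38.8% with Ifnl2. Stretches of 100 bases were shared less: 16.6% for Ifna5, 14.9% for Ifna1, 6.37% for Ifna6, 1.90% for Ifna11 and 0.643% for Ifna2. At that length Ifnb1, Ifna4 and Ifna13 shared 0%, Ifnl2 11.1% and Ifnl3 13.9%. The read length and the treatment of reads with several matches are not stated in the labels, so reads of single Ifna genes are uncertain. Their sum is given beside them, but it would be too low if such reads were dropped. Some genes that share stretches with them, such as Ifna7 and Ifna9, lie outside that sum.

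The sequences before Ifnb1, Ifna5 and Ifna4 are shown because Ifnb1 had the most reads of the 10 genes and Ifna5 the most of the Ifna genes in 1 library. Ifna4 is the interferon alpha gene with the least shared sequence by 50-base stretches. They are RefSeq sequences of GRCm38.p6, 5′ to 3′ on the strand of the gene, from 250 to 101 bases before the RefSeq start. Capitals mark matches to 3 motifs searched on both strands: AANNGAAA, a core bound by IRF factors; a tandem IRF motif, GAAA and GAAA with any 2 bases between them, which always contains the core; and a κB motif bound by NF-κB, GGGA and TTCC with any 2 bases between them. The stretches are chr4:88522895-88523044 (minus strand), chr4:88835275-88835424 (plus strand) and chr4:88841566-88841715 (plus strand).
Ifnb1: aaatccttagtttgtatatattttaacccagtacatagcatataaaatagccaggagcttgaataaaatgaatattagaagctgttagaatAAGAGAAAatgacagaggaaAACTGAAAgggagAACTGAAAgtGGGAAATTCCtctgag
Ifna5: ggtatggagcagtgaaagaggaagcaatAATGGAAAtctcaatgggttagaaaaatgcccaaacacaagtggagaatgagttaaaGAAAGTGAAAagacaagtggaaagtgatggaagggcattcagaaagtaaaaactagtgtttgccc
Ifna4: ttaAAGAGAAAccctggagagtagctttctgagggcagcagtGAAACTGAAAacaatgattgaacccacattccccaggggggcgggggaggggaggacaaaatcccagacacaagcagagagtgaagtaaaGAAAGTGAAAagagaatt

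All 10 genes had a RefSeq sequence, and the 250 bases before the start were searched in each. Ifnb1 held 3 IRF cores, of which the nearest ended 119 bases before the start, followed by a κB match at 116 to 107 bases before it. Ifnb1 was the 1 gene of the 10 with a κB match, and it had no tandem IRF motif. All 7 Ifna genes had an IRF core and 6 of 7 a tandem motif, the exception being Ifna13, while 0 of 7 had a κB match. Ifnl2 and Ifnl3 had no match to any of the 3. Among 32851 RefSeq promoters of the same length, 21.3% held the core, 2.98% the tandem motif, 1.21% the κB motif and 0.244% both the core and the κB motif. The RefSeq starts of Ifna1, Ifna2, Ifna5, Ifnl2 and Ifnl3 begin with the start codon, so for these genes the window lies nearer to the coding sequence than for Ifnb1. For Ifna2 and Ifnl2 the GENCODE start is at -133 and -95 bases from the RefSeq start, so part of the window is annotated transcript. The lack of a match in Ifnl2 and Ifnl3 covers these windows alone, since sequence farther upstream was not searched. A match describes these letters alone, since no binding was measured.

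**Figure D1:**
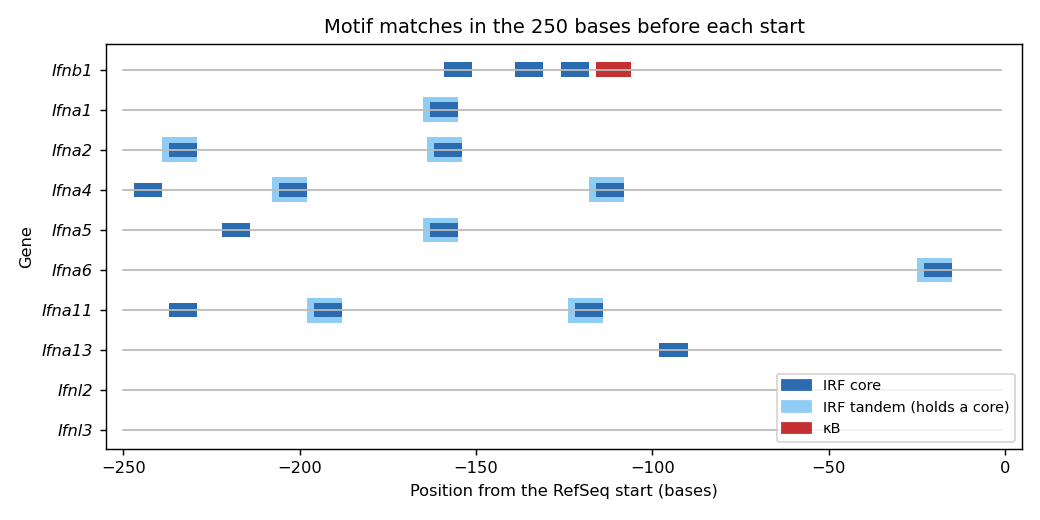
Positions of the 3 motifs in the 250 bases before the RefSeq start of each gene; the horizontal axis is distance from the start in bases, with 1 line per gene. Ifnb1 carries 3 IRF cores and the κB match, 6 of 7 Ifna genes carry a tandem IRF motif, and Ifnl2 and Ifnl3 carry no match.

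The table gives RPKM, reads per kilobase of gene scaled to the depth of the library. Whole reads could be read back from most of its nonzero values, and from every value of the 10 genes, because these came out as whole multiples of what 1 read is worth. Depth was 20.1 and 34.8 M reads for zfCTT, 88.1 and 88.2 M for mSTING, 27.7 and 101 M for no_transgene and 55.7 and 171 M for dCTT, so the zfCTT group was sequenced least. On a principal component holding 37.0% of the variance, the other 6 libraries scored 0.949 or less, against 59.7 for no_transgene replicate 1 and 30.7 for dCTT replicate 1. Tmem173, which encodes STING and is the disrupted gene, had 3.23 and 2.42 RPKM in no_transgene, 10.6 and 22.2 in mSTING, 22.7 and 15.0 in dCTT and 14.2 and 20.6 in zfCTT. Each transgenic library was above both no_transgene libraries, which still had reads of the gene; where in the gene they lie was not examined. None of the 3 differences from no_transgene passed the limma test (log2 difference 2.11 for mSTING, adjusted p = 0.684; 2.36 for dCTT, adjusted p = 1; 2.25 for zfCTT, adjusted p = 0.0539, which passed without mSTING replicate 1 at 0.0404 or mSTING replicate 2 at 0.0403). Of 10 macrophage markers, 9 had at least 1 RPKM in both libraries of every group; Mertk was below that. Summed markers of conventional dendritic cells, epithelium and lymphocytes stayed at or under 0.447 RPKM per library. Of the plasmacytoid dendritic cell markers (a cell type known for high interferon alpha output), Ly6d and Klk1 were at 0 in every library and Siglech at 0 in both zfCTT libraries, whereas Cox6a2, Tcf4 and Il3ra were present in all 4 groups. The summed level of these 8 markers, mostly from those 3 genes, was 4.05 and 10.4 RPKM in zfCTT and 8.11 to 29.9 in the other libraries; its part in the results was not tested.

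Ifnb1 was high in zfCTT, just above detection in mSTING and without a read in dCTT and no_transgene. It had 281 and 135 reads in the zfCTT libraries, or 18.7 and 5.17 RPKM. In mSTING it had 4 and 6 reads, or 0.0605 and 0.0908 RPKM. In no_transgene and dCTT all 4 libraries had 0 reads, where a floor of 3 reads allows up to 0.144 and 0.0395 RPKM in no_transgene and 0.0718 and 0.0233 in dCTT. Both zfCTT libraries thus lay far above the other 6, while the mSTING libraries lay within the range of the floors of the libraries without a read. Such floors and all intervals on reads cover counting error only, and in bulk RNA fewer expressing cells and less RNA per cell cannot be told apart.

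**Figure D2:**
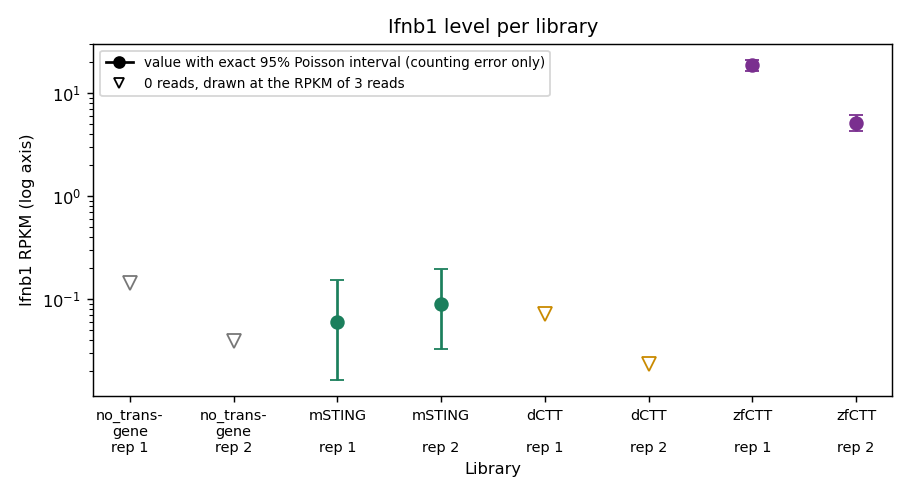
Ifnb1 RPKM (log axis) in each of the 8 libraries; points are values with exact 95% Poisson intervals from the recovered reads, and open triangles mark libraries with 0 reads, drawn at the RPKM of 3 reads. The zfCTT libraries sit at 18.7 and 5.17, above all 6 others.

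Relative to depth, Ifnb1 reads were 134-fold higher in zfCTT than in mSTING (95% interval 72.0 to 281 from 416 against 10 reads). Against a floor of 3 reads over the group they were 326-fold higher for no_transgene and 574-fold higher for dCTT. These 2 folds leave out the counting error of the 416 zfCTT reads. With 1 library of the 2 groups left out, they ran from 70.1-fold (without no_transgene replicate 2) to 602-fold (without zfCTT replicate 2) for no_transgene. For dCTT they ran from 141-fold (without dCTT replicate 2) to 1061-fold (without zfCTT replicate 2). Without zfCTT replicate 1 they were 167-fold and 294-fold. Library by library, zfCTT over mSTING ranged from 57.0-fold to 309-fold. Against the same floor the mSTING reads were 2.44-fold higher for no_transgene and 4.29-fold higher for dCTT. These folds leave out the counting error of the 10 mSTING reads (95% interval 4.80 to 18.4). The floor of no_transgene replicate 1 alone, 0.144 RPKM, was above both mSTING libraries. The zfCTT libraries themselves differed 3.61-fold (2.93 to 4.47), which is beyond counting error, whereas the mSTING libraries did not differ detectably (ratio 0.667, interval 0.138 to 2.81). Of 13003 genes with at least 100 reads over the 2 zfCTT libraries, 71.3% also differed between them beyond counting error (binomial p under 0.05).

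In the fit across all genes, Ifnb1 was the 1 member that passed the filter on low values (RPKM of at least 1 in at least 2 libraries), and it did so through zfCTT alone. On the log2(RPKM + 1) scale Ifnb1 rose in zfCTT by 3.46 ± 0.48 (SE, n = 2 per group) over no_transgene (limma, adjusted p = 0.0374) and by the same amount over dCTT (adjusted p = 0.0364). Of all 13475 tested genes, 1.08% were called in each of these comparisons. The difference from mSTING was 3.36 ± 0.48 and missed the threshold (limma, adjusted p = 0.108), in a comparison with 0.119% of genes called. This scale understates the fold of a gene near 0, and its values depend on the pseudocount. The SE is pooled over all groups, and no_transgene and dCTT, at 0 in both libraries, add no spread of their own. It and the p-values of zfCTT therefore understate the spread between the zfCTT libraries, at 18.7 and 5.17 RPKM. Between mSTING and no_transgene the log2 difference was 0.11 ± 0.48 (limma, adjusted p = 0.957), with 0% of genes called; 467 had an unadjusted p under 0.05, and limma-voom on the recovered reads called 0 too. With 2 libraries a group, an exact two-sided permutation test of Ifnb1 alone gives p = 0.333 for zfCTT against no_transgene or mSTING, the smallest it can give. Without the filter Ifnb1 was called against neither no_transgene nor dCTT (adjusted p = 0.118 and 0.122), and limma-voom did not call the difference from no_transgene (adjusted p = 0.0627). Both calls were lost when any 1 of the 6 libraries of no_transgene, mSTING or dCTT was left out (adjusted p = 0.0628 to 0.216 against no_transgene and 0.0628 to 0.267 against dCTT). They were also lost when no_transgene replicate 1 and, with it, dCTT replicate 1 were dropped (adjusted p = 0.375 and 0.356), and without either zfCTT library Ifnb1 fell below the filter.

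The interferon alpha genes had few reads, nearly all of them in zfCTT replicate 1. Ifna5 had 8 reads there (0.700 RPKM) and 0 in the other 7 libraries. Ifna2 had 6 reads in zfCTT replicate 1 (0.290 RPKM), 1 in zfCTT replicate 2 (0.0278), 1 in mSTING replicate 1 (0.0110) and 0 in the other 5. Ifna1 had 3 reads and 1 read in the zfCTT libraries (0.262 and 0.0504 RPKM) and 0 elsewhere. Ifna4 had 3 reads in zfCTT replicate 1 (0.267 RPKM) and Ifna6 had 1 read in zfCTT replicate 2 (0.0504 RPKM), both with 0 in the other 7 libraries. In all, 5 of the 7 were thus seen in a zfCTT library, and in zfCTT replicate 1 the exact Poisson intervals of their reads overlapped, from 0 to 3.69 reads for Ifna6 to 3.45 to 15.8 for Ifna5. Ifna11 and Ifna13 had no read in any library.

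Summed over the 7 genes, the zfCTT libraries had 20 and 3 reads, the mSTING libraries 1 and 0, and the other 4 libraries 0. Relative to depth, the zfCTT sum was 73.9-fold that of mSTING (interval 12.0 to 3045). Against a floor of 3 reads over the group it was 18.0-fold for no_transgene and 31.7-fold for dCTT, leaving out the counting error of the 23 zfCTT reads. Between the zfCTT libraries the sum differed 11.6-fold (3.43 to 60.8). The replicate with more Ifnb1 was therefore also the one with more Ifna, and the sum rests mostly on that library. That library was also the shallowest, and it lay farthest from the rest on the first principal component (65.4, against 19.3 for zfCTT replicate 2 and 1.29 or less for the other 6); the part of this in the result was not tested. An exact two-sided permutation test on the summed RPKM gives p = 0.333 against no_transgene or mSTING, the smallest it can give.

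The same genes can be set against the rest of the table. Of 23040 annotated genes at 0 in all 6 libraries of the other groups, 1.71% had at least 1 read in a zfCTT library and 0.0477% had at least 3 in one; of the 5215 protein-coding genes among them, the class of all 10 members, the shares were 2.91% and 0.192%. Among the 8 members at 0 in those 6 libraries, 4 had at least 1 read (Ifna1, Ifna4, Ifna5 and Ifna6) and 3 had at least 3 (Ifna1, Ifna4 and Ifna5). The Ifna genes share sequence, so these are not independent observations.

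In zfCTT, Ifnb1 made up most of the reads of Ifnb1 and the numbered Ifna genes together. It held 281 of 305 in zfCTT replicate 1 (92.1%, Wilson 95% interval 88.6 to 94.7) and 135 of 139 in zfCTT replicate 2 (97.1%, 92.8 to 98.9). In mSTING it held 4 of 5 (37.6 to 96.4) and 6 of 6 (61.0 to 100), where few reads leave the share wide. Ifnz, a further interferon gene, is left out of these counts and had 3 and 6 reads in zfCTT and 1 and 3 in mSTING. The Ifna genes share 50-base stretches with other genes and Ifnb1 does not. Had reads with several matches been dropped, Ifna reads would be undercounted, which the intervals do not cover.

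**Figure D3:**
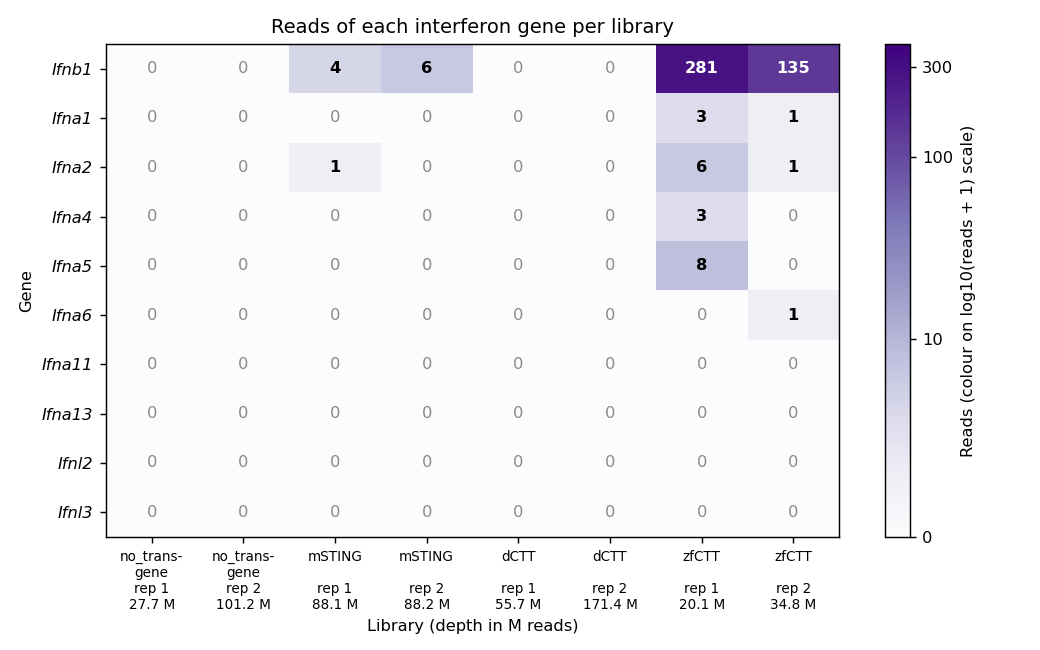
Reads recovered for each of the 10 interferon genes (rows) in each of the 8 libraries (columns, with depth in M reads); the colour is on a log10(reads + 1) scale. Ifnb1 reads are concentrated in the zfCTT libraries (281 and 135), the Ifna reads mostly in zfCTT replicate 1, and Ifna11, Ifna13, Ifnl2 and Ifnl3 are at 0 throughout.

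The interferon lambda genes were not detected. Ifnl2 and Ifnl3 had 0 reads in all 8 libraries. In the shallowest library, zfCTT replicate 1, a floor of 3 reads allows 0.213 RPKM of Ifnl2 and 0.257 of Ifnl3, far under the 18.7 RPKM of Ifnb1 in that library. In the deepest, dCTT replicate 2, it allows 0.0249 and 0.0301.

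Of 11 further interferon genes, Ifna9, Ifna14, Ifnab, Ifne, Ifnk and Ifng (interferon gamma, made mainly by lymphocytes) had no read in any library. Ifna7 had 2 reads and Ifna12 and Ifna16 1 each in zfCTT replicate 1, and Ifna15 had 1 in zfCTT replicate 2. Ifnz differed from these in having reads in all 4 groups: 0 and 3 in no_transgene, 1 and 3 in mSTING, 1 and 6 in dCTT, 3 and 6 in zfCTT. Relative to depth its zfCTT level was 7.23-fold that of mSTING (2.02 to 32.1) and 5.32-fold that of dCTT (1.76 to 16.8).

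Among 20 genes of interferon induction, all tested, 2 rose and 0 fell in zfCTT against no_transgene, where 0.928% of all tested genes were called higher and 0.156% lower. The median log2 difference was 0.41, against -0.04 for all tested genes. This list and the later ones were chosen with earlier results of these data known. Irf1, a transcription factor induced by interferons and NF-κB, had 4.05 and 3.67 RPKM in no_transgene, 24.6 and 8.21 in mSTING, 4.60 and 4.02 in dCTT and 109 and 74.3 in zfCTT, with both zfCTT libraries above the other 6, as for 10.5% of all tested genes (log2 difference 4.23, limma adjusted p = 0.0203). Irf7, the driver of Ifna transcription, had 0.115 and 0.181 RPKM in no_transgene, 60.5 and 6.61 in mSTING, 0.0999 and 0.148 in dCTT and 81.0 and 51.3 in zfCTT (5.83, limma adjusted p = 0.0438). The call of Irf7 was lost without the filter (adjusted p = 0.132), with limma-voom (0.145) and without any 1 library of no_transgene, dCTT or zfCTT (0.0876 to 0.292); that of Irf1 was lost without the filter (0.0724) and without the same single libraries (0.0553 to 0.177), and kept by limma-voom (0.0291). For Irf7, mSTING replicate 1 lay between the zfCTT libraries, although that library had 1 read of the 7 Ifna genes. Jun, which binds the Ifnb1 enhancer as part of AP-1, differed by 0.93 (limma, adjusted p = 0.141).

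For the factors that act first, no difference of zfCTT from no_transgene passed the test. Tbk1 ran from 4.36 to 5.59 RPKM over all 8 libraries (zfCTT against no_transgene 0.15, limma adjusted p = 0.739). Irf3 had 7.86 and 8.67 RPKM in no_transgene, 8.49 and 7.44 in mSTING, 9.82 and 8.06 in dCTT and 5.06 and 6.48 in zfCTT (-0.46, limma adjusted p = 0.356). Both zfCTT libraries were below the other 6 for Irf3, as they were for 10.9% of all tested genes. Without strand information, reads of Irf1, Irf3, Irf7 and Jun cannot be told from those of the genes their exons overlap (Gm17334, Bcl2l12, Phrf1 and Junos).

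Of 11 receptor and signal transduction genes, 10 were tested; 4 rose and 0 fell in zfCTT against no_transgene, beside 0.928% of all tested genes higher and 0.156% lower (median log2 difference 1.25, against -0.04 for all genes). The 4 do not encode receptors. Irf9, the DNA-binding part of the ISGF3 complex, had 0.971 and 0.983 RPKM in no_transgene, 8.12 and 5.13 in mSTING, 1.16 and 0.963 in dCTT and 6.99 and 7.54 in zfCTT (log2 difference 2.06, limma adjusted p = 0.0196). The mSTING and zfCTT libraries overlapped for Irf9, unlike for Ifnb1. Of the others, 2 encode inhibitors of the pathway. Usp18, which blocks IFNAR signalling, differed by 5.44 (limma, adjusted p = 0.0196), and Socs1, which blocks JAK kinases, by 4.16 (limma, adjusted p = 0.0291). Without the filter 0 of the list were called, and limma-voom called 1; Irf9 had adjusted p = 0.0623 and 0.0291, Usp18 0.0645 and 0.0676, and Socs1 0.101 and 0.0777. Stat2 just missed the threshold (1.97, limma adjusted p = 0.0540). Irf9 and Usp18 share exonic sequence with Rnf31 and Gm44148.

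The receptor genes did not pass the test. Ifnar1 had 9.22 and 10.5 RPKM in no_transgene, 8.92 and 9.41 in mSTING, 8.59 and 10.7 in dCTT and 5.56 and 7.71 in zfCTT (log2 difference of zfCTT from no_transgene -0.52, limma adjusted p = 0.343). Ifnar2, the other chain of IFNAR, had 18.1 and 16.9 RPKM in no_transgene, 15.2 and 15.1 in mSTING, 16.7 and 17.2 in dCTT and 10.8 and 13.0 in zfCTT (-0.52, limma adjusted p = 0.230). Both zfCTT libraries were below all 6 others for each chain, which again holds for 10.9% of tested genes. Il10rb, a chain of the lambda receptor, differed by -0.50 (limma, adjusted p = 0.522) with overlapping libraries. Ifnar2 and Il10rb both share exonic sequence with Gm21970. Ifnlr1, the chain specific to interferon lambda, had 0.216 and 0.0827 RPKM in no_transgene, 0.960 and 0.201 in mSTING, 0.232 and 0.0851 in dCTT and 9.48 and 0.859 in zfCTT. It did not pass the filter, and its high value is that of zfCTT replicate 1 alone.

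**Figure D4:**
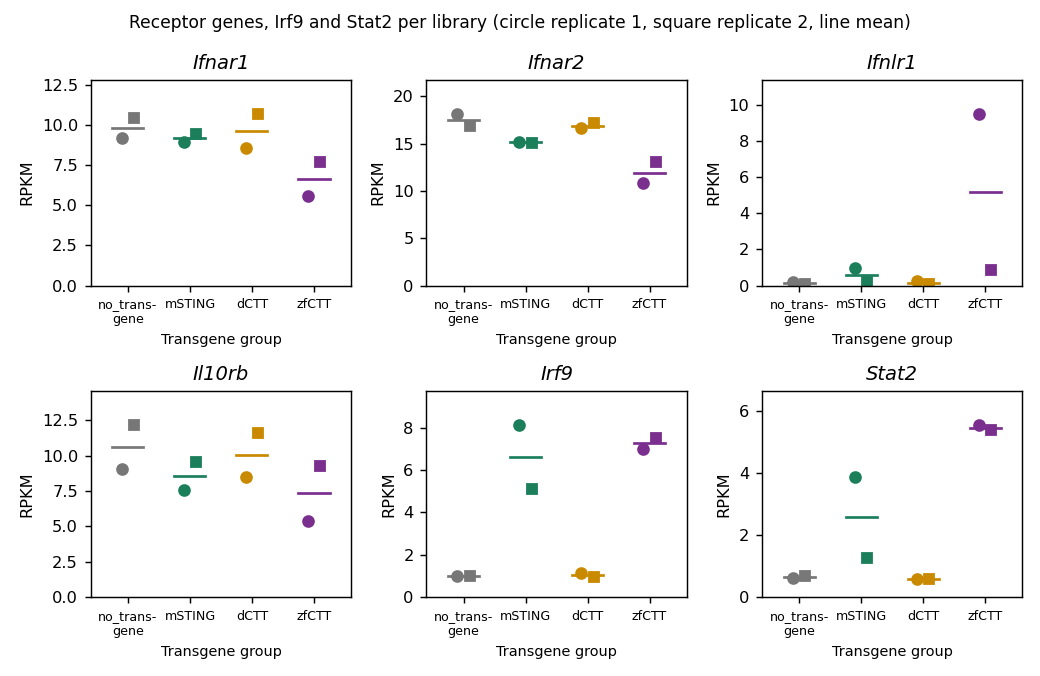
RPKM of 4 receptor genes and of Irf9 and Stat2 by group (circles replicate 1, squares replicate 2, lines means). Both zfCTT libraries are lowest for Ifnar1 and Ifnar2 and highest for Stat2, while Ifnlr1 is high in zfCTT replicate 1 (9.48) and not in replicate 2 (0.859).

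Of 24 interferon-stimulated genes, 23 were tested, of which 11 rose and 0 fell in zfCTT against no_transgene (median log2 difference 3.97), and 12 rose and 0 fell against dCTT, where 0.913% of all genes were called higher and 0.171% lower. Against mSTING 0 were called (0.111% of all genes higher and 0.00742% lower), as were 0 in mSTING against no_transgene, where the median was 1.77. In each of these 2 comparisons 17 of the 23 had an unadjusted limma p under 0.05, all higher in zfCTT or mSTING. Of all tested genes, 5.71% were under it and higher for zfCTT against mSTING, and 1.94% for mSTING against no_transgene. In either direction the shares were 11.0% and 3.47%. By limma-voom 0 of the 23 were called in each. Isg15, a ubiquitin-like antiviral protein, had 0.477 and 0.810 RPKM in no_transgene, 247 and 30.5 in mSTING, 0.499 and 0.509 in dCTT and 582 and 292 in zfCTT (zfCTT against no_transgene 7.98, limma adjusted p = 0.0203). Cxcl10, a T cell chemokine, had 0.657 and 0.614 RPKM in no_transgene, 335 and 68.9 in mSTING, 0.909 and 1.19 in dCTT and 1275 and 734 in zfCTT (9.21, limma adjusted p = 0.0101). In both genes every mSTING library stood well above no_transgene and dCTT, and both zfCTT libraries stood above mSTING. Rsad2, Oasl1 and Rtp4, all antiviral or interferon-induced, rose by 5.64, 6.52 and 4.43 (limma, adjusted p = 0.0196, 0.0130 and 0.0196). Rsad2 had no read in no_transgene or dCTT, so its fitted value is no bound on the fold. Cxcl10, Oasl1 and Rtp4 overlap the exons of Art3, Gm13822 and Gm45338. In place of 11, limma-voom called 1 gene of the list and the fit without a filter on low values called 1. Leaving out 1 library moved the 3 list counts of zfCTT against no_transgene widely: without no_transgene replicate 1, no_transgene replicate 2 or zfCTT replicate 1 each was 0. Without dCTT replicate 1 or 2 they were 0, 0 and 1, without zfCTT replicate 2 0, 0 and 6, and without mSTING replicate 1 or 2 they were 3, 5 and 18. Dropping no_transgene replicate 1 and, with it, dCTT replicate 1 made all 3 counts 0.

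The ratio of zfCTT to mSTING was larger for Ifnb1 than for each of the 23 interferon-stimulated genes, a difference that was not tested. By mean RPKM, Ifnb1 was 158-fold higher in zfCTT than in mSTING, with mSTING at 0.0756 ± 0.0214 and zfCTT at 11.9 ± 9.55 (SD, n = 2). The 23 interferon-stimulated genes had a median ratio of 3.45, from 1.02 for Bst2 to 13.2 for Ifit1bl1. In 17 of the 23 both zfCTT libraries were above both mSTING libraries, which holds for 24.9% of all tested genes. The ratio of Ifnb1 rests on 10 mSTING reads, and with zfCTT replicate 2 alone it was 57.0 to 85.5 against the single mSTING libraries. Between the mSTING replicates, all 23 interferon-stimulated genes were higher in replicate 1 than in replicate 2 (median ratio 4.39, from 2.30 to 15.4), whereas Ifnb1 had 4 reads against 6.

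**Figure D5:**
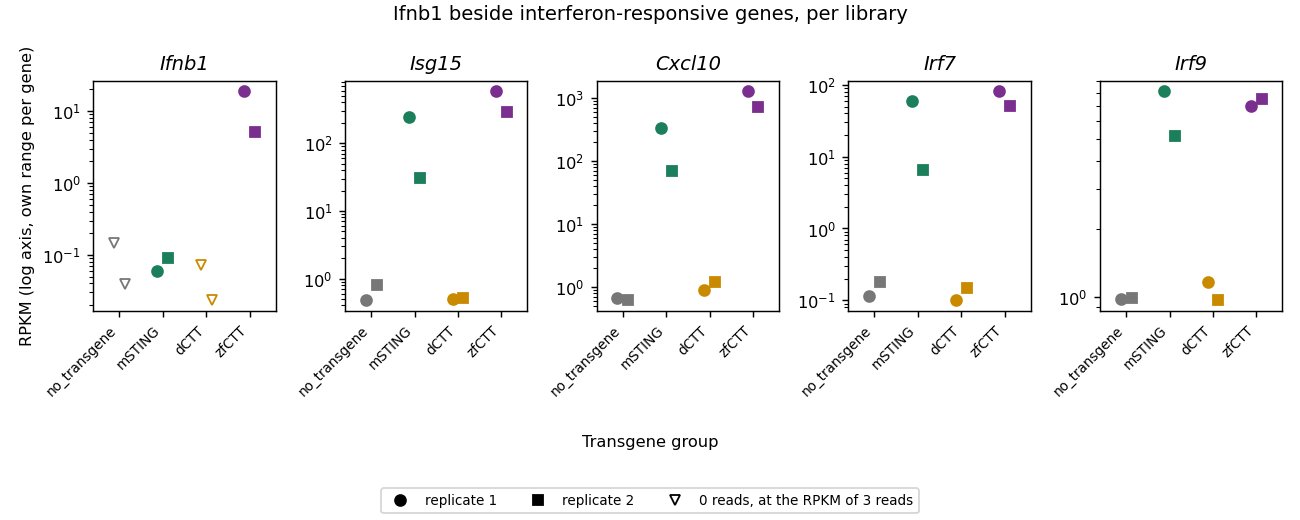
RPKM (log axis, own range per gene) of Ifnb1 and of 4 interferon-responsive genes by group; circles are replicate 1, squares replicate 2, and open triangles libraries with 0 reads drawn at the RPKM of 3 reads. Isg15, Cxcl10, Irf7 and Irf9 are higher in both mSTING libraries than in no_transgene and dCTT, and Ifnb1 is there at 0.0605 and 0.0908.

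The genes whose pattern was most like that of Ifnb1, by Pearson correlation of log2(RPKM + 1) over the 8 libraries among 9035 tested protein-coding genes, were Cnn3 (r = 0.998), Rras2 (0.997), Ccl22 (0.997), Ccl12 (0.994) and Rabgef1 (0.994). Cnn3, an actin-binding protein, had 11.0 and 3.17 RPKM in zfCTT and 0.213 or less in the other 6 libraries. Ccl12, a monocyte chemokine, had 22.8 and 4.92 in zfCTT and 0.403 or less elsewhere. The likeness is a description that rests on the 2 zfCTT libraries, with replicate 1 above replicate 2. Of the interferon-stimulated genes, Ifit2 came nearest (r = 0.977, rank 37).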

How the data were processed

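RNA was measured in 8 libraries, 2 for each of 4 transgene labels; the labels do not say whether the 2 were separate cultures, and the p-values reflect only library-to-library spread, possibly technical. The authors deposited RPKM values per gene. Cutadapt 1.16, HISAT2 2.1.0 and the builds GRCm38 and mm10 are named, without roles, per the submitters' processing notes; the counting tool, annotation and use of strand are not stated there. Poly(A) libraries were single-end, per the labels' protocols.

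Reads were recovered as RPKM times GENCODE vM21 exon length over the step of each library, within 0.05 of a whole read for 95.0% to 95.6% of nonzero values and for every value of the 10 genes. Symbols were found for 53620 identifiers, 95 had none. Genes with RPKM of at least 1 in at least 2 libraries (13475) were tested on log2(RPKM + 1) with limma 3.58.1 (R 4.3.3), all 8 libraries in 1 fit with an intensity trend and 4 residual degrees of freedom, and Benjamini-Hochberg adjustment within each of 6 contrasts at 0.05 (genes past it are called). The code was tested on simulated data. Exact intervals (95%) and floors (3 reads) were computed with scipy 1.17.1.

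Named were all members, other interferon genes, the 4 tested genes with the smallest adjusted p of each pathway list, fixed pathway genes and the 5 genes most like Ifnb1; Bst2, Ifit1bl1 and Ifit2 were named after their values were seen. From the pathway lists 1 gene that the rule names is not reported here. The members and lists were chosen with earlier results of these data known. Alternatives covered the pseudocount, filter, scaling, voom, a replicate block and left-out libraries.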

Additional observations from a re-analysis of the deposited data

How the results depend on the processing

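Ifnb1 in zfCTT against no_transgene kept its direction in every fit that gave a value, but was no longer called without a filter on low values (3.46, adjusted p = 0.118) or with limma-voom on recovered reads (9.47, adjusted p = 0.0627); against dCTT it was not called without a filter (3.46, adjusted p = 0.122). A mean RPKM of at least 5 removed Ifnb1 from the test. With 1 library of the other groups left out the difference is 3.46 by construction, since no_transgene and dCTT are at 0, and without a zfCTT library Ifnb1 was not tested, so these fits say nothing of how stable its size is. With no_transgene replicate 1 and dCTT replicate 1 both left out, a setting chosen after seeing the data, 0 genes were called in any of the 3 zfCTT comparisons.

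Genes called in zfCTT against no_transgene, 146 as reported, were 34 without a filter, 64 at a mean RPKM of at least 5, 53 with voom and 432 with the replicate block, and 2 to 144 with 1 library left out. Against mSTING, 16 became 0 at a pseudocount of 0.1, 29 without a filter, 2 at a mean of at least 5, 8 with voom, 44 with the block and 0 to 5 with 1 library left out. Against dCTT, 146 became 28 without a filter, 61 at a mean of at least 5, 409 with the block and 1 to 148 with 1 library left out. For mSTING against no_transgene, 0 became 11 at a pseudocount of 0.1, 12 without a filter and 0 to 16 with 1 library left out; for dCTT against mSTING, 0 became 3, 14 and 0 to 10.

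Deviations of same-numbered libraries were shared in some pairs of groups and hardly in others. They correlated at 0.76 for no_transgene with dCTT, 0.43 for no_transgene with zfCTT, 0.40 for dCTT with zfCTT and 0.26 for mSTING with zfCTT. For mSTING with no_transgene and with dCTT the correlation was 0.04 and 0.03. The main fit had no replicate term, so it leaves such shared deviations in the spread. With the replicate block Ifnb1 had adjusted p = 0.0253 against no_transgene, 0.0258 against dCTT and 0.0746 against mSTING, and Tmem173 in zfCTT against no_transgene was called (adjusted p = 0.0452). Signs turned in Irf3 for mSTING against no_transgene (-0.05 as reported, 0.011 with median ratio scaling, -0.13 to 0.036 with 1 library left out, above 0 without no_transgene replicate 2 or mSTING replicate 2) and in Tbk1 (0.05 as reported, -0.030 without mSTING replicate 2). The causes were not tested. Another gene length was not run, since every value of the 10 genes came out whole. A depth of 20.1 M reads in zfCTT replicate 1 limits what a value of 0 shows there.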
